A study of Bos taurus with 129 samples.

Results

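The cattle described here are the 14 animals labelled as having bovine respiratory disease (BRD). Among them the COMBO supplement program was set against the other programs. Each of the 14 animals was compared with itself between day 0, the day of pen enrollment after arrival, and day 60. Their day 0 and day 60 libraries were taken from the deposited count table by the disease, time point and treatment labels, which gave 28 of the 70 libraries from BRD cattle and 14 of the 26 animals of the whole study, whose 12 healthy animals gave 59 further libraries. All were commercial crossbred beef steers that had been transported to 1 facility and were vaccinated and dewormed at day 0. They were vaccinated again between the samplings of days 13 and 28. Whole blood was taken into RNA-stabilizing tubes for mRNA sequencing. The INR program (7 BRD animals) fed sulfate sources of copper, cobalt, manganese and zinc. The AAC program (4 animals) fed the same elements in organic form, with copper, manganese and zinc complexed with amino acids and cobalt as glucoheptonate. COMBO (3 animals, numbered 16, 18 and 54) fed the complexed minerals and added a trace mineral and vitamin drench before shipment, at day 0 and with any treatment for illness. No pen label covered animals of more than 1 program (in the BRD cattle pen 6 for COMBO, pens 2 and 8 for AAC, pens 3, 4 and 7 for INR). The study rotated steers between pens every 14 days. The label names 1 pen per animal, so it is read as a pen group and not as the pen on each day. Pen group and supplement cannot be told apart. The day on which each animal was treated for BRD is not given in the sources used here. Day 0 is therefore the day of pen enrollment and not a fixed stage of illness.

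BRD is the syndrome of viral and bacterial lung infection that follows weaning, mixing and shipment of young cattle. Copper and zinc serve as cofactors of superoxide dismutase, zinc is bound by metallothioneins, and cobalt is the metal of cobalamin in animal tissues. Genes for handling these elements are therefore among those described. Type I interferons, which virus-infected cells release, bind a surface receptor and switch on antiviral genes such as MX1, OAS2 and RSAD2 in nearly every blood leukocyte. In whole blood, fewer cells of a type and less RNA per cell cannot be told apart.

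The libraries held 38173713 to 59092041 counts (median 42829809). Hemoglobin transcripts and leukocyte markers were present in every library, and connective tissue genes summed to 45.37 to 258 CPM (a gene's counts scaled to a common library total after TMM scaling). On the first principal component of log2 CPM, animal 21 (AAC) at day 0, animal 40 (INR) at day 60 and animal 54 (COMBO) at day 60 scored -133.2, -161.6 and -159, and the other 25 libraries lay between -54.8 and 57.6. The library of animal 40 at day 60 is the one that the study's methods name for low RNA integrity. The second component set apart day 0 of animals 18 and 54, at 114.1 and 85.1, and day 60 of animal 43 (INR), at 134, on one side and day 60 of animal 21, at -94.6, on the other.

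No gene's change differed between COMBO and the other 11 animals after adjustment across all 17709 tested genes. The test was edgeR's quasi-likelihood test with the animal as a block and Benjamini-Hochberg adjustment. A gene is called below when its false discovery rate (FDR) was under 0.10, and the smallest FDR here was 0.342, giving 0% called. At an unadjusted p under 0.05 there were 2199 genes (12.4%), of which 1061 (5.99%) had the higher change in COMBO and 1138 (6.43%) the lower. limma on the per-animal changes also called 0, whereas DESeq2 called 368 genes, 169 higher and 199 lower. The count of 0 depended on which libraries were fitted. All 70 BRD libraries of the 5 days in 1 edgeR fit gave 1251 calls for the same contrast, 454 higher and 797 lower. Without animal 16 and with the day 0 and day 60 libraries alone, edgeR called 1282 genes (583 higher and 699 lower in COMBO). That fit kept only animals 18 and 54 in COMBO. Of the 1282 genes, 1126 (87.8%) were among the 2199, but the shared libraries and contrast make such overlap likely beforehand. Without animal 18 edgeR called 0, with 1310 genes under an unadjusted p of 0.05, and without animal 54 it called 1, with 784. Leaving out any 1 of the 11 AAC and INR animals gave 0 calls each time. Without animals 21, 40 and 54 together, a choice made after seeing the data, 0 genes were called and 1292 had an unadjusted p under 0.05.

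**Figure D1:**
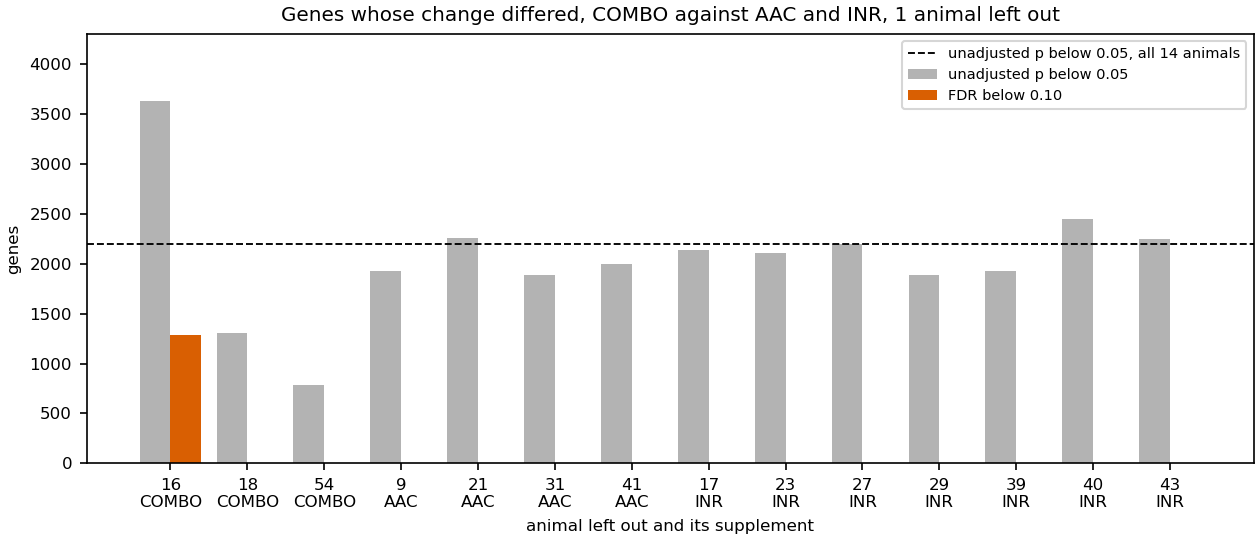
Number of genes (vertical axis) whose day 0 to day 60 change differed between COMBO and the AAC and INR animals when the animal named on the horizontal axis was left out, at an unadjusted p under 0.05 (grey) and at an FDR under 0.10 (orange); the dashed line is the count of 2199 with all 14 animals. The orange bar stands out for animal 16 alone, at 1282 genes.

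Against AAC alone edgeR called 0 genes (smallest FDR 0.438), with 1918 (10.8%) at an unadjusted p under 0.05, of which 875 (4.94%) were higher and 1043 (5.89%) lower in COMBO. limma called 0 there, and DESeq2 called 68 genes higher and 53 lower. Against INR alone it called 0 (smallest FDR 0.515), with 1680 (9.49%) at an unadjusted p under 0.05, 840 (4.74%) in each direction, 0 by limma and 74 by DESeq2. AAC and INR, which were pooled as the comparison group, gave 0 calls by edgeR against each other, 0 by limma and 6 by DESeq2. At an unadjusted p under 0.05 there were 415 genes (2.34%), 204 (1.15%) higher and 211 (1.19%) lower in AAC. Without animal 16 the comparison with AAC called 717 genes and that with INR 594.

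The animals did not move equally. Animal 54 had 2022 genes at least 2-fold higher and 1880 at least 2-fold lower at day 60 than at day 0, animal 18 had 1737 and 1169, and animal 16 had 830 and 806. Among the other 11 animals the counts ran from 645 to 1937 higher and from 738 to 2957 lower. Animal 16 therefore lay within the range of the AAC and INR animals, and animal 54 above all of them for genes that were higher.

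The genes with the smallest p on the higher side were UNC93A, ZNF219, CMC4 and PORCN. They were chosen for this difference, so their values are given as a description, and none was called (adjusted p = 0.342 for each, edgeR with Benjamini-Hochberg adjustment). UNC93A encodes a membrane protein of the UNC93 family. In COMBO animals 16, 18 and 54 it was at 0.403, 0.209 and 0.173 CPM at day 0 and at 1.04, 0.536 and 1.29 CPM at day 60. Its log2 CPM change was 1.28, 1.2 and 2.62 in them, against -1.37 to 0.07 (median -0.60) in the other 11. All 3 COMBO changes lay above all 11 others, a pattern that 79 genes (0.446%) showed. Both directions together held 156 such genes (0.881%). Leaving out 1 animal gave 2115 (11.7%) without animal 16, 395 (2.18%) without 18, 321 without 54 and 263 (1.49%) without 21. Leaving out an animal, above all a COMBO animal, makes non-overlap easier to reach, so these counts cannot be set against 156. The fitted difference of changes was 2.51 on the log2 scale (SE 0.44, unadjusted p = 4.41e-05 by edgeR). UNC93A is a low gene, with 6 to 65 counts in a library.

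PORCN, the enzyme that attaches a fatty acid to Wnt ligands before their secretion, had the widest difference of these 4, at 2.63 (SE 0.55, unadjusted p = 0.000264 by edgeR). It was at 0.379, 0.130 and 0.123 CPM at day 0 in animals 16, 18 and 54, below every AAC and INR animal (0.446 to 1.5 CPM). At day 60 it was at 0.858, 0.610 and 1.09 CPM, within or just above the range of the others (0.0904 to 0.949). The gap for PORCN thus lay at day 0, but PORCN is also a low gene, with 4 to 57 counts in a library. ZNF219, a zinc finger transcription factor, was at 1.44, 0.808 and 1.09 CPM at day 0 and 1.67, 2.17 and 3.19 at day 60 in COMBO, with changes of 0.20, 1.38 and 1.52 against -0.62 to 0.07 in the others. CMC4, a small mitochondrial protein whose locus overlaps MTCP1 in the RefSeq gene table so that its count is uncertain, was at 0.403, 0.626 and 0.543 CPM at day 0 and 0.556, 2.44 and 1.84 CPM at day 60. Its COMBO changes of 0.43, 1.89 and 1.68 overlapped those of the others (-0.94 to 0.75), because the INR animal 43 stood at 0.75. The exact two-sided permutation test over animals gave p = 0.00275 for UNC93A, ZNF219 and PORCN, the smallest that 364 arrangements allow, and 0.00549 for CMC4. The genes were chosen from the same changes, so these p-values describe the order of the animals and add no separate support.

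On the lower side LEKR1, COPS2, H4 and UHRF1BP1 came first, and again none was called (adjusted p = 0.342 for each, edgeR with Benjamini-Hochberg adjustment). LEKR1, a leucine-, glutamate- and lysine-rich protein, was at 2.79, 13.7 and 16.1 CPM at day 0 in animals 16, 18 and 54, against 1.22 to 3.92 CPM (median 1.78) in the other 11. By day 60 it stood at 1.69, 2.56 and 1.86 CPM, inside the others' range of 1.01 to 6.19. The changes of -0.71, -2.40 and -3.08 lay below all 11 others (-0.53 to 0.96), as they did for 77 genes (0.435%), and the fitted difference was -2.31 (SE 0.43, unadjusted p = 8.93e-05 by edgeR). Animals 18 and 54 carried the high day 0 levels, and animal 16 was within the others' range on both days.

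H4, a core histone, followed the same course at 2.96, 15.2 and 7.21 CPM at day 0 and 2.11, 2.85 and 2.30 at day 60 (others 0.663 to 2.32 and 0.778 to 7.23), with a difference of -2.19 (SE 0.46, unadjusted p = 0.000241 by edgeR). Histone H4 genes are near-identical copies, so their counts are uncertain. LOC516742, which the RefSeq gene table names H4C14, was another of these copies, with changes of -0.63, -2.21 and -1.82 in COMBO and a difference of -2.18. COPS2, a subunit of the COP9 signalosome that trims NEDD8 from ubiquitin ligases, was at 32.6, 52.5 and 48.8 CPM at day 0 and 28.3, 30.2 and 26.7 at day 60, against 25.9 to 37.2 and 26.5 to 38.1 in the others. Its difference was smaller and tighter, at -0.69 (SE 0.14, unadjusted p = 0.000204 by edgeR). UHRF1BP1, a lipid transfer protein also named BLTP3A, was at 97.7, 109.4 and 93.4 CPM at day 0 and 89, 77.8 and 64.4 at day 60, with a difference of -0.55 (SE 0.12, unadjusted p = 0.000268 by edgeR). At day 0 all 3 COMBO animals stood above the others' 56.92 to 84.3 CPM for UHRF1BP1, and at day 60 they overlapped (61.8 to 94.1). The exact two-sided permutation test gave p = 0.00275 for these 4 genes, the smallest possible, which again is a description of genes chosen from the same changes.

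**Figure D2:**
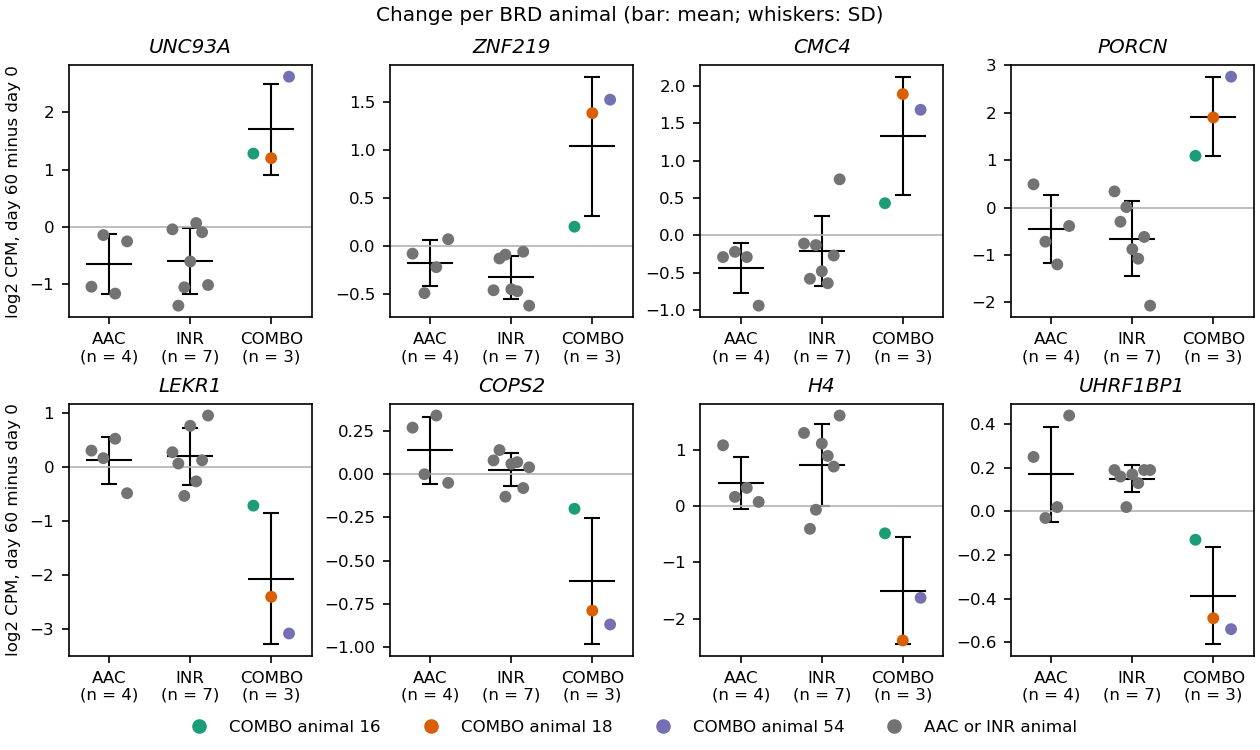
Change in log2 CPM from day 0 to day 60 (vertical axis) of each BRD animal for the 4 genes of smallest p in each direction, by supplement, with the mean (bar) and SD (whiskers); COMBO animals are coloured and AAC and INR animals grey. In every panel except that of CMC4 the 3 COMBO points lie outside the 11 others, and animal 16 is usually the COMBO point nearest to them.

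The other symbols named by the same rule on the higher side were ACAD9, COL7A1, FOXO4 and ARHGEF19. ACAD9, an assembly factor of respiratory complex I, had changes of 0.24, 0.66 and 0.85 in COMBO and -0.32 to 0.16 in the others. FOXO4, a forkhead transcription factor, had 0.19, 0.59 and 0.79 against -0.33 to 0.18. ARHGEF19 was the most even of them, with 1.09, 0.99 and 0.97 against -0.98 to 0.24. COL7A1, the chain of anchoring-fibril collagen, overlapped, with 0.31, 1.93 and 1.82 against -1.23 to 0.55. Of the unnamed loci, LOC101907118 had changes of 0.94, 1.25 and 1.56 against -0.64 to 0.44, and the non-coding LOC112441663 had 0.07, 1.70 and 1.88 against -1.92 to -0.14. ARHGEF19 and LOC101907118 were low, with 11 to 71 and 8 to 52 counts in a library. LOC112441663 fell in the AAC and INR animals (log2 fold change -0.75, adjusted p = 0.0485, edgeR).

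On the lower side the rule also took CCDC85A, CWF19L2, CDADC1, RRAS2 and LOC100298064. CWF19L2, a protein of the splicing machinery, did not overlap (-0.12, -0.54 and -0.73 against -0.11 to 0.48), but animal 16 was separated from the nearest other animal by only a small step. CDADC1, a cytidine deaminase domain protein, was at 128.8 CPM in animal 18 at day 0 and slightly higher in animal 54, against 54.4 to 78.2 in the others, and animal 16 was at 63.4. RRAS2, a Ras-family GTPase, rose in the AAC and INR animals (0.34, adjusted p = 0.0128, edgeR), with changes of 0.06, -0.40 and -0.45 in COMBO. CCDC85A, a coiled-coil protein, was at 1.67 and 1.63 CPM at day 0 in animals 18 and 54 but had no count in animal 16, whose change of 0.61 had the opposite sign to theirs (-2.70 and -2.79). LOC100298064 had changes of -0.70, -2.39 and -2.35 against -1.0 to 1.2.

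The comparisons with AAC and with INR alone put some other genes first. IL1R2, the decoy receptor that binds interleukin-1 without signalling, had the smallest p against INR, with a difference of 3.09 (unadjusted p = 9.73e-05, adjusted p = 0.515, edgeR). It was at 5.52, 3.13 and 3.09 CPM at day 0 and 8.51, 6.56 and 4.94 CPM at day 60 in COMBO, changes of 0.62, 1.06 and 0.67. The other 11 animals ran from -4.14 to 0.18, and IL1R2 fell in them (-1.61, adjusted p = 0.0213, edgeR). Against AAC its difference was 1.28 (unadjusted p = 0.0532). NECAB2, a calcium-binding protein, was also higher against INR (1.3, unadjusted p = 0.000115, adjusted p = 0.515, edgeR) and fell in the AAC and INR animals (-0.59, adjusted p = 0.0188, edgeR). Against AAC, GNPTG, a subunit of the enzyme that tags lysosomal hydrolases, differed by 0.85 and PLD2, phospholipase D2, by 1.12 (unadjusted p = 0.000241 and 0.000262, adjusted p = 0.438 for both, edgeR). PLD2 was nearly uniform in COMBO, with changes of 1.1, 1.18 and 1.15.

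Within the COMBO animals, 3 genes (0.0169%) passed from day 0 to day 60, 1 higher (0.00565%) and 2 lower (0.0113%), and all of them also passed in the AAC and INR animals. At an unadjusted p under 0.05 there were 1064 higher (6.01%) and 1203 lower (6.79%) in COMBO, and 1498 higher (8.46%) and 1819 lower (10.3%) in the others. CDH1, the adhesion protein E-cadherin, rose by 2.47 on the log2 scale in COMBO (adjusted p = 0.014) and by 1.39 in the others (adjusted p = 0.000367), both by edgeR. KLF11, a TGF-beta-inducible transcription factor, fell by 1.68 (adjusted p = 0.0153) and 2.11 (adjusted p = 5.11e-07). The transcript rna-NR_031389.1, the microRNA precursor MIR2328, fell by 2.13 (adjusted p = 0.014) and 1.91 (adjusted p = 5.02e-06). DESeq2 called 859 genes in COMBO. The count of 3 moved to 1190 without animal 16, 0 without 18, 1 without 54 and 6 without the AAC animal 21, and without the INR animal 43 it was 0.665% of the genes tested.

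In the 11 AAC and INR animals 1179 genes passed (6.66%), 470 higher (2.65%) and 709 lower (4.00%) at day 60. That count was 554 without animal 39, 606 without 29, 692 without 31, 742 without 41 and 766 without 21. Without animals 21, 40 and 54, whose libraries stood apart, it was 1703, and the larger direction turned, with 946 higher and 757 lower. Of the 470 genes that rose, 203 (43.2%) were higher at day 60 in all 3 COMBO animals, against 14% of all tested genes. Of the 709 that fell, 206 (29.1%) were lower in all 3, against 13.2%. The median fitted change of the 709 was -0.63 in the others and -0.13 in COMBO, and that of the 470 was 0.51 and 0.28. The genes were chosen by their change in AAC and INR, so the medians are given without a test.

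**Figure D3:**
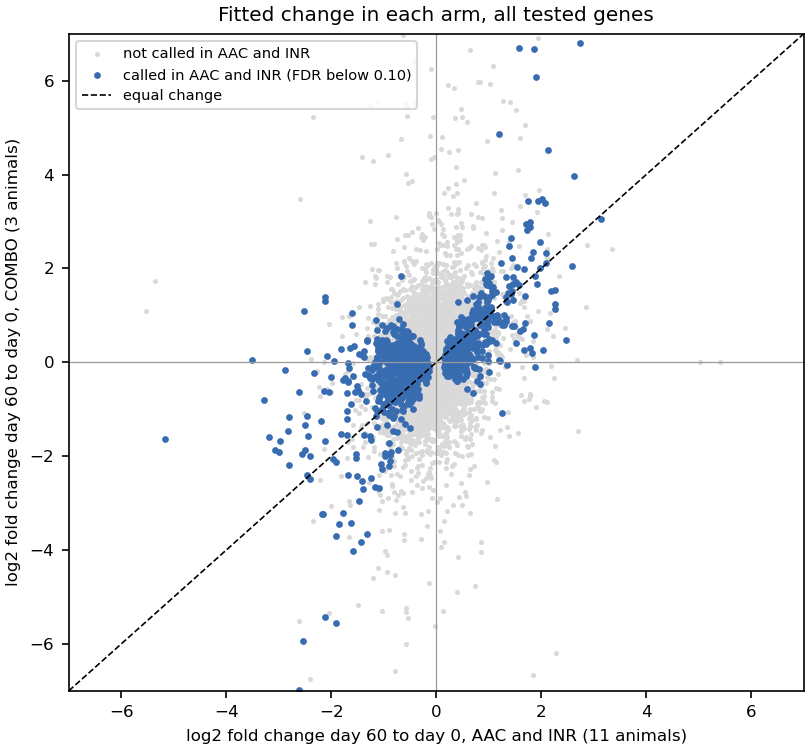
Fitted log2 fold change from day 0 to day 60 in the 11 AAC and INR animals (horizontal axis) and in the 3 COMBO animals (vertical axis) for each tested gene; blue points are the 1179 genes called in AAC and INR, grey points the rest, and the dashed line marks equal change. The 709 blue points on the left spread around a median of -0.13 in COMBO, and 24 points lie outside the axes.

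HP, PDK4, CPT1A and CD163 are described as examples of the genes that fell in the others, and were picked after their values were seen. HP, the acute-phase protein haptoglobin, was at 239, 156 and 282 CPM at day 0 and 82.1, 86.20 and 130.5 at day 60 in COMBO, against 98.44 to 942 and 4.94 to 142 in the others. It fell by 2.81 in the AAC and INR animals (adjusted p = 0.000154, edgeR), and its COMBO changes were -1.54, -0.86 and -1.11. The difference of changes for HP was 1.64 (SE 0.57, unadjusted p = 0.0121, adjusted p = 0.342, edgeR). PDK4, the kinase that shuts pyruvate dehydrogenase during fasting, fell by 3.07 in the others (adjusted p = 1.86e-05, edgeR) and had changes of -2.41, -0.63 and -2.51 in COMBO. CPT1A, which carries fatty acids into mitochondria, fell by 1.70 in the others (adjusted p = 4.39e-06, edgeR) and had changes of -1.91, -0.58 and -1.15. Animal 18 had the lowest day 0 CPM of PDK4 (27.1) and CPT1A (72) of all 14 animals and the smallest change of the 3. CD163, the hemoglobin scavenger receptor of monocytes, fell by 2.04 in the others (adjusted p = 0.00162, edgeR), and its COMBO changes were -0.71, -0.12 and -1.06.

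Genes were also grouped in 29 lists by role, covering 685 tested symbols, and no member of any list was called in COMBO against the others. Their counts at an unadjusted p under 0.05 are to be read against the background of 5.99% higher and 6.43% lower. The medians below are of the difference in log2 change, beside 0.015 over all tested genes. For 15 of the 29 lists the median changed sign when some single animal was left out, for 10 of them without animal 54. Counts of members called in the AAC and INR animals are to be read against 2.65% higher and 4.00% lower. The list genes named below other than the pair of highest mean CPM in each list were picked after their values were seen.

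**Figure D4:**
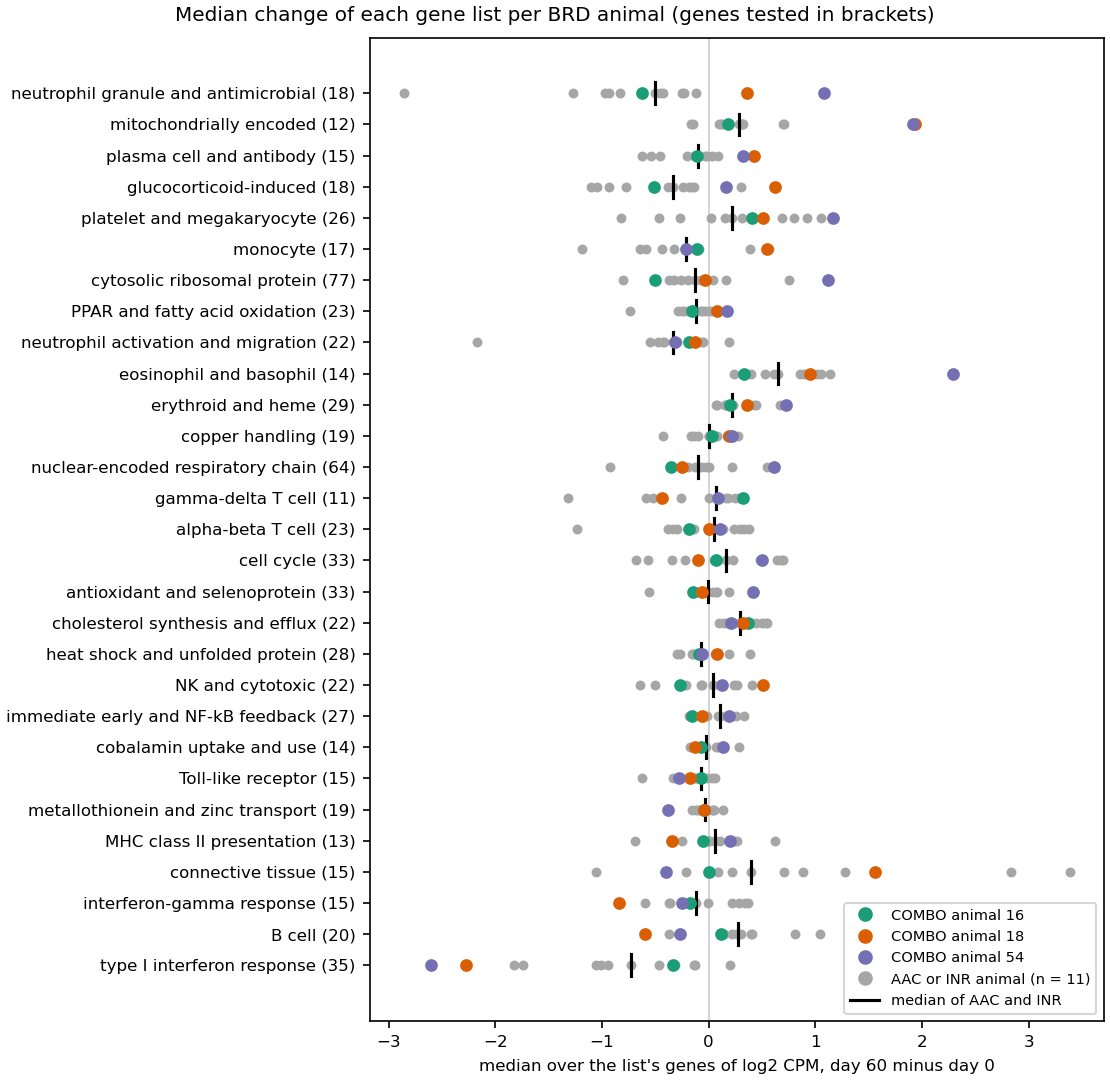
Median log2 CPM change from day 0 to day 60 over the tested genes of each list (horizontal axis) in each BRD animal, with lists ordered by the median difference between COMBO and the others; coloured points are the COMBO animals, grey points the 11 AAC and INR animals and black ticks their median. Animals 18 and 54 sit at the low end for the type I interferon list and at the high end for the mitochondrially encoded list, while animal 16 is among the grey points in both.

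The type I interferon response list had the lowest median, at -1.045 over 35 genes, with 0 higher and 11 lower. It was -1.688 without animal 16 and -0.578 without animal 54, the ends of its range when single animals were left out. In the AAC and INR animals 15 of the 35 fell and 0 rose, against 4.00% and 2.65% of all tested genes. Summed over the list, animals 18 and 54 held 40500 and 33450 CPM at day 0, above every AAC and INR animal (3493 to 25090, median 7811), and animal 16 held 4868. At day 60 the COMBO sums were 4110, 7647 and 4087 CPM, within the others' 3016 to 7925. RSAD2, the antiviral protein viperin, was at 23.7, 1750 and 1412 CPM at day 0 and 12.4, 73.47 and 32.8 at day 60 in COMBO, with a difference of -2.40 (SE 1.04, unadjusted p = 0.0365, adjusted p = 0.342, edgeR). OAS2 and MX1, the most abundant members, had differences of -1.22 each (unadjusted p = 0.0587 and 0.0711, adjusted p = 0.342 for both, edgeR). OAS2 was at 653, 7803 and 6348 CPM at day 0 and fell in the others (-1.24, adjusted p = 0.022, edgeR), as did ISG15, a ubiquitin-like antiviral protein (-1.92, adjusted p = 0.0471, edgeR).

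CXCL10, a chemokine induced by interferons, had a difference of -3.36 (SE 0.81, unadjusted p = 0.000871, adjusted p = 0.342, edgeR). It was at 5.33, 187 and 142 CPM at day 0 in animals 16, 18 and 54 and at 5.50, 7.66 and 9.54 CPM at day 60. The other 11 stayed between 4.98 and 18.6 CPM at day 0 and between 4.74 and 21.47 at day 60. Animals 18 and 54 were thus far above all others at day 0 for CXCL10, and animal 16 was not (change 0.04, exact two-sided permutation p = 0.011). CXCL10 was picked after its values were seen, so this p-value is a description. TLR7, the endosomal sensor of single-stranded RNA, followed them at 106.8, 199 and 225 CPM at day 0 against 85.9 to 155, and 93.35, 66.5 and 70.8 at day 60. The interferon-gamma response list had a median of -0.328 over 15 genes, with 0 higher and 4 lower.

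The libraries of the days between show when these genes were high. The interferon sum of animal 16 was 4857 CPM at day 0, 33640 at day 13 and 3881 at day 28, with values scaled over all 70 BRD libraries. Animal 18 went from 40170 at day 0 to 7993 at day 13, then 19770 at day 28 and 25050 at day 45, and 7648 at day 60. Animal 54 held 33400 at day 0 and 4504 to 6613 on the next 3 days. The highest AAC or INR animal was at 25110, 17950, 7344, 14300 and 7965 CPM on the 5 days. Each COMBO animal therefore had at least 1 library above all 11 others, at day 13 in animal 16 and at day 0 in animals 18 and 54. CXCL10 was at 116.7 CPM in animal 16 at day 13, when the highest of the others was at 21.52. LEKR1 was at 6.93 CPM in animal 16 at day 13, when the highest of the others was at 3.37, so in that animal too its high value and the high interferon sum fell on the same day. Among the COMBO animals only 18 and 54 had these high values in a day 0 library.

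**Figure D5:**
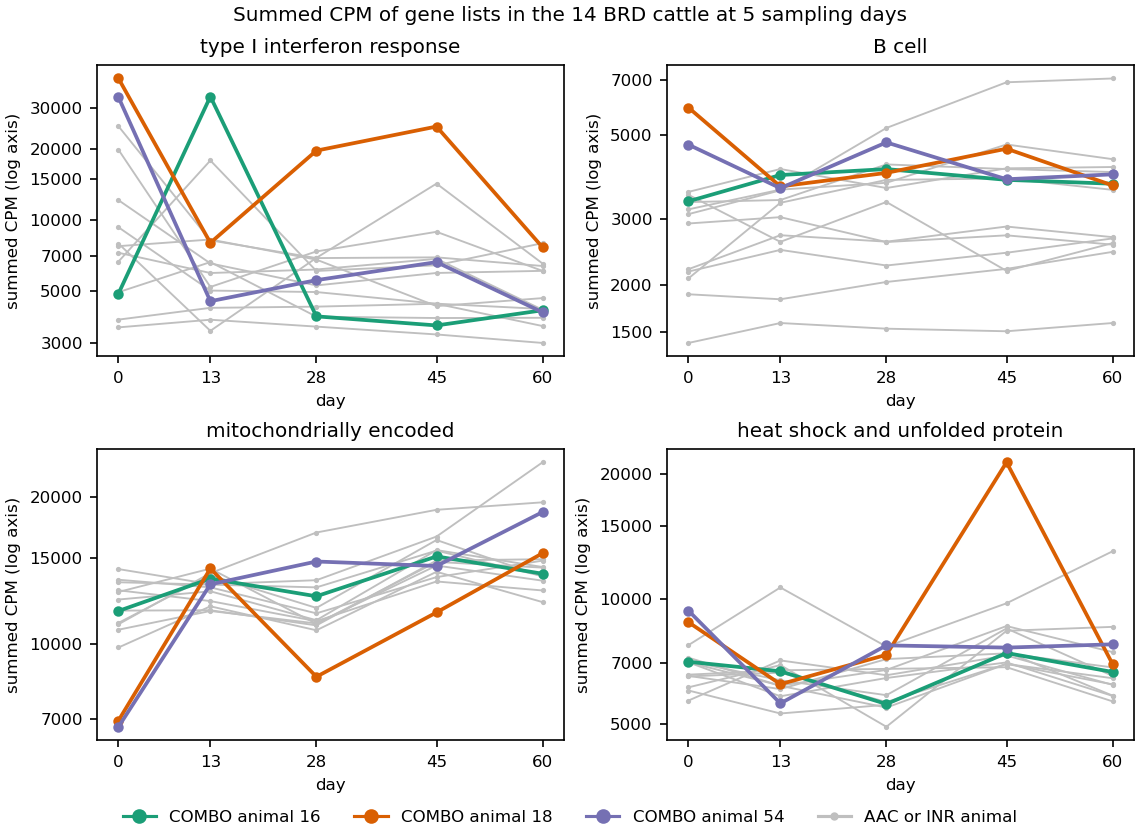
Summed CPM of 4 gene lists (vertical axis, logarithmic) on the 5 sampling days (horizontal axis) in the 14 BRD animals, with 1 line per animal; COMBO animals are coloured and AAC and INR animals grey. The interferon sum peaks at day 0 in animals 18 and 54 and at day 13 in animal 16 (33640 CPM), and the mitochondrially encoded sum is lowest at day 0 in animals 18 and 54.

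Mitochondrially encoded transcripts moved the other way. These genes encode respiratory chain subunits on the mitochondrial chromosome. The list median was 0.901 over 12 genes, with 8 higher and 0 lower, and ran from 0.692 to 1.318 when single animals were left out. Its sum was 11710, 7012 and 6763 CPM at day 0 in animals 16, 18 and 54, and the other 11 held 9849 to 14290. At day 60 it was 13900, 15350 and 18870 against 12250 to 23810. CYTB, cytochrome b of complex III, was at 783, 167 and 188 CPM at day 0 and 835, 1018 and 1433 at day 60, with a difference of 1.58 (SE 0.47, unadjusted p = 0.00423, adjusted p = 0.342, edgeR). ND4L, a complex I subunit, was at 792, 188 and 196 CPM at day 0 against 512 to 916 in the others, and at 869, 944 and 812 at day 60. COX1 and ND1, the most abundant members, had differences of 0.38 and 0.66 (unadjusted p = 0.105 and 0.011, adjusted p = 0.342 for both, edgeR). The members were thus not lowered equally at day 0, with CYTB and ND4L far lower and COX1 (5216, 4342 and 3958 against 4925 to 6533) only a little. ATP6, whose reading frame overlaps ATP8, was between 0.169 and 0.581 CPM in most libraries but reached 144 and 1740 CPM at day 60 in animals 18 and 54, and up to 2418 CPM in the others. Its difference of 6.56 (SE 4.61, unadjusted p = 0.175, adjusted p = 0.342, edgeR) rested on few libraries. The 64 nuclear-encoded respiratory chain genes had a median of 0.106, which turned to -0.198 without animal 54, with 0 in either direction.

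B cell markers were lower in change. The list median was -0.569 over 20 genes, with 0 higher and 7 lower, and -0.765 to -0.418 when single animals were left out. The sum was 3349, 5972 and 4730 CPM at day 0 and 3711, 3682 and 3985 at day 60 in COMBO, against 1436 to 3535 and 1597 to 7027 in the others. Animals 18 and 54 were again above all others at day 0. FCRL3, an Fc receptor-like protein of B cells, was at 70.3, 287 and 122.9 CPM at day 0 and 57.9, 47.6 and 22.9 at day 60, with a difference of -2.04 (SE 0.48, unadjusted p = 0.000757, adjusted p = 0.342, edgeR). The transcription factors EBF1 and PAX5, which hold B cell identity, had differences of -0.81 and -0.80 (unadjusted p = 0.0196 and 0.0334, edgeR, neither called). MS4A1 (CD20) and CD79A, the most abundant members, differed less, by -0.50 and -0.38 (unadjusted p = 0.153 and 0.103, edgeR, neither called). The plasma cell and antibody list had a median of 0.512 over 15 genes (0.330 without animal 18), with 2 higher and 1 lower.

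The neutrophil granule list had the highest median, at 1.02 over 18 genes, with 4 higher and 0 lower. In the others 8 of its genes fell and 1 rose, against 4.00% and 2.65% of all tested genes. LYZ, lysozyme, was at 2122, 781 and 638 CPM at day 0 and 1849, 1580 and 960 at day 60 in COMBO, and fell in the others (-0.54, adjusted p = 0.088, edgeR). S100A12, a calcium-binding alarmin, was at 964, 577 and 639 CPM at day 0 and 500, 572 and 704 at day 60, against 582 to 4408 and 184 to 924. Animals 18 and 54 were at or near the low end of the others at day 0 for S100A12 and below all of them for LYZ (1389 to 6975). OLFM4, a granule protein of a neutrophil subset, was at 3.95, 0.782 and 0.815 CPM at day 0 and 3.66, 3.68 and 4.48 at day 60. The list's COMBO medians per animal were -0.62, 0.36 and 1.08, so animal 16 had the sign of all 11 AAC and INR animals. Monocyte genes had a median of 0.305 over 17 (3 higher, 0 lower) and platelet genes 0.412 over 26 (2 and 0). The monocyte median was 0.069 without animal 18 and 0.588 without animal 16, and the platelet median 0.229 without animal 54. THBS1, the platelet and monocyte protein thrombospondin 1, fell in the others (-1.82, adjusted p = 0.00596, edgeR) and had changes of -0.80, 1.92 and -0.14 in COMBO, above all 11 others. The alpha-beta T cell, gamma-delta T cell, NK and eosinophil lists had medians of 0.055, 0.103, 0.001 and 0.223, with 0 genes in either direction except 1 higher in the NK list. The eosinophil median was 0.060 without animal 54 and 0.626 without animal 16. The part of shifts in cell makeup in the differences of single genes was not tested.

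The heat shock and unfolded protein list split, with 9 genes higher and 7 lower among 28, about a median of 0.010. The lower ones included the cytosolic chaperone HSP90AB1, at 814, 1986 and 2214 CPM at day 0 and 802, 768 and 917 at day 60 against 535 to 1002 and 690 to 1823 in the others. Its difference was -1.11 (SE 0.28, unadjusted p = 0.00129, adjusted p = 0.342, edgeR). The higher ones were mostly chaperones of the endoplasmic reticulum, such as PDIA4, a disulfide isomerase, at 255, 149 and 129.4 CPM at day 0 and 260, 253 and 247 at day 60 (difference 0.72, unadjusted p = 0.00402, adjusted p = 0.342, edgeR). HSPA8, the most abundant member, differed by 0.10 (unadjusted p = 0.86). Animals 18 and 54 thus held more HSP90AB1 and less PDIA4 than animal 16 at day 0, and the 3 were close at day 60.

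Genes for handling the supplemented minerals showed little. Of 19 metallothionein and zinc transport genes 0 were higher and 1 lower (median -0.115). That gene was the zinc transporter SLC39A9, at -0.29 (unadjusted p = 0.0462, adjusted p = 0.342, edgeR). SLC30A1, the zinc exporter of the plasma membrane, was at 109.4, 114.8 and 119.2 CPM at day 0 in COMBO, with changes of -0.09, -0.02 and -0.92 in log2 CPM. Of 19 copper handling genes 2 were higher and 1 lower (median 0.113), among them CCS, the chaperone that loads copper onto superoxide dismutase, at 0.41 (unadjusted p = 0.0128, adjusted p = 0.342, edgeR). SOD1 itself differed by -0.03 (SE 0.18). Of 14 cobalamin genes 0 were higher and 1 lower (median -0.035), which was MTRR, the reductase that restores methionine synthase. Of 33 antioxidant and selenoprotein genes 2 were higher and 0 lower (median 0.024), namely GPX4, which reduces oxidized lipids, and MSRB1, which reduces oxidized methionine. These shares are near the background, and an unadjusted p above 0.05 does not show that the changes were alike.

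Among the remaining lists, glucocorticoid-induced genes had a median of 0.481 over 18 (4 higher, 0 lower; 0.230 without animal 18), and 6 of them fell in the others, against 4.00% of all tested genes. The PPAR and fatty acid oxidation list had 0.290 over 23 (5 and 2), and 0.167 without animal 54. Cytosolic ribosomal proteins had 0.298 over 77 (1 and 0) and erythroid genes 0.139 over 29 (1 and 0), and without animal 54 these medians turned to -0.172 and -0.077. Cholesterol genes had 0.012 over 22 (0 and 1) with 10 rising in the others (2.65% of all tested genes rose), cell cycle genes 0.038 over 33 (0 and 0), and neutrophil activation genes 0.245 over 22 (2 and 0), which was 0.101 without animal 43. Immediate early genes had -0.020 over 27 (0 and 4), Toll-like receptor genes -0.059 over 15 (2 and 2), MHC class II genes -0.144 over 13 (1 and 0), and connective tissue genes -0.192 over 15 (1 and 0), which turned to 0.552 without animal 54. The ribosomal list had per-animal medians of -0.51, -0.03 and 1.12 in COMBO, the last in animal 54, whose day 60 library stood apart on the first component.

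Over all tested genes the gap between the COMBO mean and the mean of the others was larger at day 0 than at day 60 for 59.8%. The COMBO program gave a drench before shipment, so day 0 is not a baseline before all supplementation. For the 2199 genes with an unadjusted p under 0.05 it was larger at day 0 for 82.8%, which is a description, since these genes were chosen by the change itself. In LEKR1, CXCL10 and CYTB the day 0 gap came from animals 18 and 54, with animal 16 inside the range of the others.

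The 12 healthy cattle of the same study gave the same contrast in other animals (4 COMBO against 8 others). There edgeR called 0 of 17271 genes (smallest FDR 0.264), with 1391 (8.05%) at an unadjusted p under 0.05, of which 663 were higher (3.84%) and 728 lower (4.22%). limma called 0, and DESeq2 called 31 higher and 84 lower. The type I interferon list had a median of -1.056 with 12 of 35 lower, next to -1.045 in the BRD cattle. The test of BRD against healthy gave 0 of these 35 genes at an unadjusted p under 0.05. The healthy COMBO cattle were all labelled pen 5 and the BRD COMBO cattle all pen 6. Disease and pen group therefore cannot be told apart within COMBO. The BRD COMBO animals may also have been drenched again with treatment for illness. In healthy COMBO cattle the interferon sum was 6197 to 16440 CPM at day 0, lower than in animals 18 and 54, and 4111 to 4382 at day 60. The healthy and BRD medians had opposite signs for 15 of the 29 lists. Among them were neutrophil granule genes at -0.149 in the healthy cattle, B cell genes at 0.402, mitochondrially encoded genes at -0.147, platelet genes at -0.682 and glucocorticoid-induced genes at -0.375. At an unadjusted p under 0.05 the test of BRD against healthy held 6 of 18, 9 of 20, 8 of 12, 7 of 26 and 6 of 18 genes of these lists in that order, against 1171 higher (6.45%) and 1369 lower (7.54%) of 18159 genes. Among the other lists of opposite sign it held 0 gamma-delta T cell, 1 erythroid, 1 MHC class II and 7 heat shock genes. Some of the medians of opposite sign were near 0, such as 0.01 for heat shock and -0.035 for cobalamin genes in the BRD cattle.

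The test of BRD against healthy called 0 genes in edgeR (smallest FDR 0.123), 0 in limma and 615 in DESeq2. Without animal 16 edgeR called 1428, and without animal 23, 34, 41 or 54 it called 1 to 3. LEKR1 and H4 came nearest, with interactions of -2.79 and -2.91 (adjusted p = 0.123 for both, edgeR). LEKR1 changed by -0.03 to 0.18 in the 4 healthy COMBO cattle and by -0.87 to 0.26 in the 8 others, whereas BRD COMBO animals were at -0.71 to -3.08. H4 was at 0.65 to 1.17 in healthy COMBO cattle, against -0.48 to -2.39 in the BRD COMBO animals. UNC93A, which differed by 2.51 in the BRD cattle, differed by 0.25 in the healthy ones (interaction 2.25, unadjusted p = 0.000289, adjusted p = 0.165, edgeR).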

How the data were processed

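Whole blood RNA was sequenced from stranded mRNA libraries. The deposited table holds counts per gene, which the authors made with Trimmomatic, HISAT2 and StringTie on the ARS-UCD1.3 bovine genome. They are derived from transcript coverage and are not direct read tallies, so small counts are approximate. Counts were scaled by TMM, filtered with filterByExpr to 17709 of 32395 genes and fitted in edgeR 4.0.16 (R 4.3.3) with animal as a block and a common dispersion, testing the day by COMBO term by the quasi-likelihood test. The block rests on each animal giving both libraries. Deviations of an animal's 2 libraries from their group means correlated at 0.171 to 0.44 (median 0.38, n = 14), against a median of -0.023 between animals. Per-animal changes are log2 CPM with a prior count of 2. Named genes were those of smallest p in each direction, 8 with a symbol and 2 without against both other programs and 3 against each alone, and the 2 list members of highest mean CPM. ATP6 was named for resting on few libraries. The groups, lists and genes were chosen with earlier results of these data known. DESeq2 1.42.0 and limma 3.58.1 were alternatives. The edgeR fits of COMBO against the others, COMBO against AAC, COMBO in healthy cattle and BRD against healthy were tested on simulated counts. The other steps were not. The 3 COMBO animals limit the precision of every contrast. Gene names and roles of unnamed loci came from a RefSeq gene table of another assembly, so no coordinates are given.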

Additional observations from a re-analysis of the deposited data

Results flagged for a closer look

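Among the per-animal changes of 24 genes and the median changes of 29 lists within AAC (4 animals) and INR (7 animals), 10 groups (9.43%) held 1 animal further from the rest than Dixon's 95% limit. In independent groups chance alone passes that limit in about 1 in 20. The groups here share animals and the genes were chosen by their change, so the 2 shares are not a test. AAC animal 21, whose day 0 library stood apart on the first principal component, did so for 5 lists. Its median log2 change was -0.69 for MHC class II presentation (the nearest other AAC animal was at 0), -0.43 for copper handling, -0.56 for antioxidant and selenoprotein genes, -0.92 for the nuclear-encoded respiratory chain and -0.80 for cytosolic ribosomal proteins. INR animal 43 did so for neutrophil granule genes, at -2.86 against -1.27 in the next animal, for neutrophil activation genes, at -2.17 against -0.55, and for CMC4, a mitochondrial protein, at 0.75 against -0.11. CMC4 was also apart in AAC animal 41, at -0.94 against -0.29, and UHRF1BP1, a lipid transfer protein, in INR animal 27, at 0.02 against 0.13. The COMBO group of 3 was not checked against this limit.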

How the results depend on the processing

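Values here are percents of the genes tested. Changing the scaling to RLE, the filter, the dispersion or the FDR threshold left 0 calls for COMBO against the others, against AAC and against INR. Without the animal pairing (no replicate block) COMBO against the others also had 0 calls, with 7.01% under an unadjusted p of 0.05, and the share called within AAC and INR went from 6.66% to 3.08%. DESeq2 called 2.08% for COMBO against the others, 0.683% against AAC, 0.418% against INR, 0.0339% between AAC and INR, 4.85% within COMBO, 11.7% within AAC and INR, 0.666% in healthy cattle and 3.39% for BRD against healthy. All 70 BRD libraries in 1 fit gave 6.77% (454 genes higher, 797 lower) and 18.9% under an unadjusted p of 0.05. Within COMBO, 0.0282% were called with RLE and with a trended dispersion, 0.0341% with a CPM filter and 0.311% in limma, and within AAC and INR 2.93% at an FDR of 0.05. Without animals 21, 40 and 54, chosen after seeing the data, 0% were called within COMBO and 0.00542% for BRD against healthy, 7.22% had an unadjusted p under 0.05 and 5.08% had changes that do not overlap, a share of 1.34% with no filter. The causes were not tested. Leaving out single animals gave 0 to 7.08% called for COMBO against the others, 0 to 3.96% against AAC, 0 to 3.28% against INR, 0 to 6.57% within COMBO, 3.14 to 8.33% within AAC and INR, 0 to 0.00573% in healthy cattle and 0 to 7.7% for BRD against healthy. Every highest share was without animal 16 except within AAC and INR (without 54) and in healthy cattle (without animal 6 or 34). It also gave 4.34 to 20% under an unadjusted p of 0.05 and 0.923 to 11.7% whose changes do not overlap, both highest without animal 16. Leaving out animals, above all from COMBO, makes non-overlap easier to reach. No named gene with an unadjusted p under 0.05 reversed in direction under these alternatives, but list medians did: 15 of 29 changed sign when some single animal was left out and 12 under another alternative. The split within AAC and INR turned to 946 higher and 757 lower without animals 21, 40 and 54.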
